A study of Mus musculus with 2 samples.

Results

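The 35 genes described here act in S phase. They were taken as a fixed list of symbols, and all 35 were listed in both libraries, among 6001 genes that the WT and Cko tables share. They were summed as a share of the UMIs (unique molecular identifiers, each 1 captured transcript) and followed gene by gene through the bone marrow cell types. No measured value was a rule for choosing them, but the list was chosen with earlier results of these data known. The data are single cell RNA sequencing (Sc-RNA-Seq, 10x Genomics 3′ chemistry) of bone marrow cells (BMCs) freed of red cells, from the hind limbs and forelimbs of mice at postnatal day 21. The WT library came from 1 mouse and the Cko library from 1 mouse, both on the C57BL6/J background. The Cko mouse was homozygous for a floxed exon 2 of Mbtps1, which encodes site-1 protease (S1P), and carried an Osx1-GFP::Cre transgene (S1P f/f;Osx-Cre). The paper writes WT for S1P f/f mice, which are homozygous for the same floxed exon. The Osx promoter that drives this Cre marks bone-forming progenitors, and most of the cells measured here are blood cells. The paper, however, describes most GFP-expressing marrow cells of Cko as hematopoietic. It also found exon 2 of Mbtps1 ablated in sorted neutrophils of every Cko mouse analyzed, and proposes that S1P is lost in blood lineages too. No mouse with Osx-Cre alone was included here, so S1P loss and the transgene cannot be told apart in these data. The paper states that such mice served as controls in an earlier study. Mbtps1 itself stood at 31.9 CPM (UMIs per 1000000 UMIs) in WT and 31.2 CPM in Cko, but reads at the 3′ end lie outside the deleted exon and check nothing. Each genotype is a single library, so no spread between mice is known and no difference between WT and Cko was tested. The 95% intervals given below are exact and cover counting error only.

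DNA is copied once in each cell cycle. In G1, Cdc6 loads the ring of Mcm2 to Mcm7 onto origins, geminin (Gmnn) later blocks loading, and cyclin E with its kinase starts S phase, when Cdc45 and the GINS complex turn the ring into an active helicase. Primase, DNA polymerase alpha, the sliding clamp PCNA, its loader, the flap endonuclease Fen1 and the ligase Lig1 then build the new strands, while Rrm1, Rrm2, Tyms, Tk1 and Dut supply nucleotides and Slbp, Nasp and the CAF-1 subunits supply and place histones. Many of these genes are targets of the E2F transcription factors. In marrow, dividing cells are the progenitors, the pre-B cells, the promyelocytes and myelocytes, and the erythroblasts, which keep dividing while they fill with hemoglobin. Mature neutrophils and the last nucleated red cell stages have left the cycle.

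The promoters are shown because the whole group is known for control from E2F sites. RefSeq windows (GRCm38.p6) were found for 27 of the 35 genes, and the 250 bases before each start were searched on both strands for the 4 E2F words TTTCCCGC, TTTCGCGC, TTTGCCGC and TTTGGCGC. A word was found in 7 of the 27 (25.9%), namely Cdc6, Hells, Mcm5, Mcm6, Mcm7, Pola1 and Uhrf1, and in 583 of 27025 genes of the whole table (2.16%). The word CCAAT was found in 17 of the 27 (63.0%) and in 37.5% of all genes, and both kinds stood together in 5 of the 27 (18.5%) and in 0.966% of all. Because TTTCGCGC and the reverse of TTTGGCGC share letters, 1 stretch can hold both, as in Mcm5. The table held no window for Mcm4, Gins2, Gmnn, Ccne2, Rfc2, Tipin, Usp1 and Atad2. A match is a description of the letters and not a bound site. The 5 stretches that carry a word and touch no GENCODE exon are given here, 5′ to 3′ on the gene's strand, with the E2F word in capitals. Those of Mcm6, Mcm5 and Pola1 lie outside every annotated gene, and those of Uhrf1 and Cdc6 lie in an intron of their own gene as GENCODE draws it, which starts further upstream. They cover chr1:128359719-128359778 (minus strand) for Mcm6, chr8:75109330-75109393 (plus) for Mcm5, chr17:56304102-56304161 (plus) for Uhrf1, chr11:98907987-98908046 (plus) for Cdc6 and chrX:93632260-93632319 (minus) for Pola1.
Mcm6: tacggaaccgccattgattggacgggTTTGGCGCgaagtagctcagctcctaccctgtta
Mcm5: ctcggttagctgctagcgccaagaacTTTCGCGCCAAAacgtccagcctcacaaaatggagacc
Uhrf1: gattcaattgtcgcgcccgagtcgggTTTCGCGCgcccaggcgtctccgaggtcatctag
Cdc6: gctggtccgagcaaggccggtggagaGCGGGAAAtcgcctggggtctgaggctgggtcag
Pola1: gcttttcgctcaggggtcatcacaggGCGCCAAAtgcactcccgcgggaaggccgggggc

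The libraries held 6271 WT and 3662 Cko cells after a minimum of 200 genes, with medians of 6977 and 7440 UMIs per cell. The barcode sequences of 28 cells occur in both libraries. Clustering both libraries together, with the S phase, mitosis and histone genes left out, gave 15 clusters, of which 11 held at least 50 cells of each genotype. Clusters were named only from fixed marker genes and are called after a pair of their 10 leading genes. There were 4 erythroid-like clusters, ordered by the hemoglobin share of their UMIs in WT: Mt2-Car1 (1.29%), Acp5-Hebp1 (13.4%), Hbb-bs-Hemgn (61.0%) and Bpgm-Tmcc2 (83.2%). The neutrophil lineage held an Elane-Mpo cluster of granulocyte-monocyte progenitor-like cells, a Chil3-Ngp cluster and a Mmp8-Retnlg cluster, and the others were monocyte-like, early B-like, late B-like and stem and progenitor-like. The late B-like cluster stood apart. Of its 236 WT cells, 175 held at least 5% hemoglobin UMIs and 61 were called doublets, against 22 and 12 of its 69 Cko cells, so the comparison of early with late B-like cells is given with and without the hemoglobin-bearing cells.

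The 35 genes made up 0.50% of all UMIs in WT (281658 UMIs) and 0.310% in Cko (106502 UMIs), or 5001 and 3095 CPM. A median WT cell held 32.0 UMIs of the group and a median Cko cell 15.0, and the richest cells held 332 and 289. Cells without any such UMI were 4.64% of WT and 12.1% of Cko. The WT library was richer in erythroid-like cells (3391 of 6271, against 548 of 3662 in Cko), which are rich in these transcripts. When the Cko cluster levels were weighted by the UMIs that each cluster held in WT, the Cko level was 4080 CPM, or 0.816 of WT in place of 0.619.

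Because a 3′ library takes each transcript once, UMIs do not grow with transcript length, but capture can differ between genes, so the order of UMI totals describes the counts and not the levels of the transcripts. The 10 genes with the most UMIs were, in that order, Dut, Slbp, Rrm2, Tipin, Gmnn, Pcna, Mcm7, Nasp, Tk1 and Lig1, and the leading 4 took 33.0% of the group's UMIs in WT and 32.9% in Cko. In GENCODE (GRCm38) Dut lies at chr2:125247190-125258608, Slbp at chr5:33634952-33652574, Rrm2 at chr12:24708241-24714146, Tipin at chr9:64281581-64305424 and Gmnn at chr13:24751845-24761923. Pcna lies at chr2:132249162-132253314, Mcm7 at chr5:138164583-138172422, Nasp at chr4:116601052-116627941, Tk1 at chr11:117815526-117826092 and Lig1 at chr7:13277283-13311433. Every one of the 35 genes was found in at least 10.1% of the cells of each library, the lowest being Ung in Cko, and the widest were Slbp (72.8% of WT and 62.0% of Cko cells) and Rrm2 (72.7% and 49.8%).

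Across cell types the order of the summed level was the same at both ends in both libraries. The Acp5-Hebp1 erythroid cluster was highest, with 9072 CPM in WT (9009 to 9134) and 8196 CPM in Cko (8039 to 8355). In WT the Mt2-Car1 erythroid cluster (5987 CPM) and the early B-like cluster (5740 CPM) came next, and in Cko these were the early B-like (4729 CPM), Hbb-bs-Hemgn erythroid (4037 CPM) and Mt2-Car1 erythroid (3868 CPM) clusters. The intervals of the last pair were 3936 to 4141 and 3796 to 3942 CPM and overlap by a few CPM. The Elane-Mpo progenitor-like cells stood at 3675 CPM in WT and 3467 CPM in Cko, the stem and progenitor-like cells at 3185 and 2552 CPM, the monocyte-like cells at 3054 and 2009 CPM, and the Chil3-Ngp neutrophil-like cells at 2449 and 2505 CPM. Lowest were the Mmp8-Retnlg neutrophil-like cells, at 321 CPM in WT and 259 CPM in Cko, and the Bpgm-Tmcc2 erythroid cells, at 291 and 105 CPM. Both clusters are the closest the data come to cells that should lack the transcripts, at median depths of 3758 and 4472 UMIs for the former and 5113 and 6869 UMIs for the latter, and such levels cannot be told from free RNA.

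**Figure D1:**
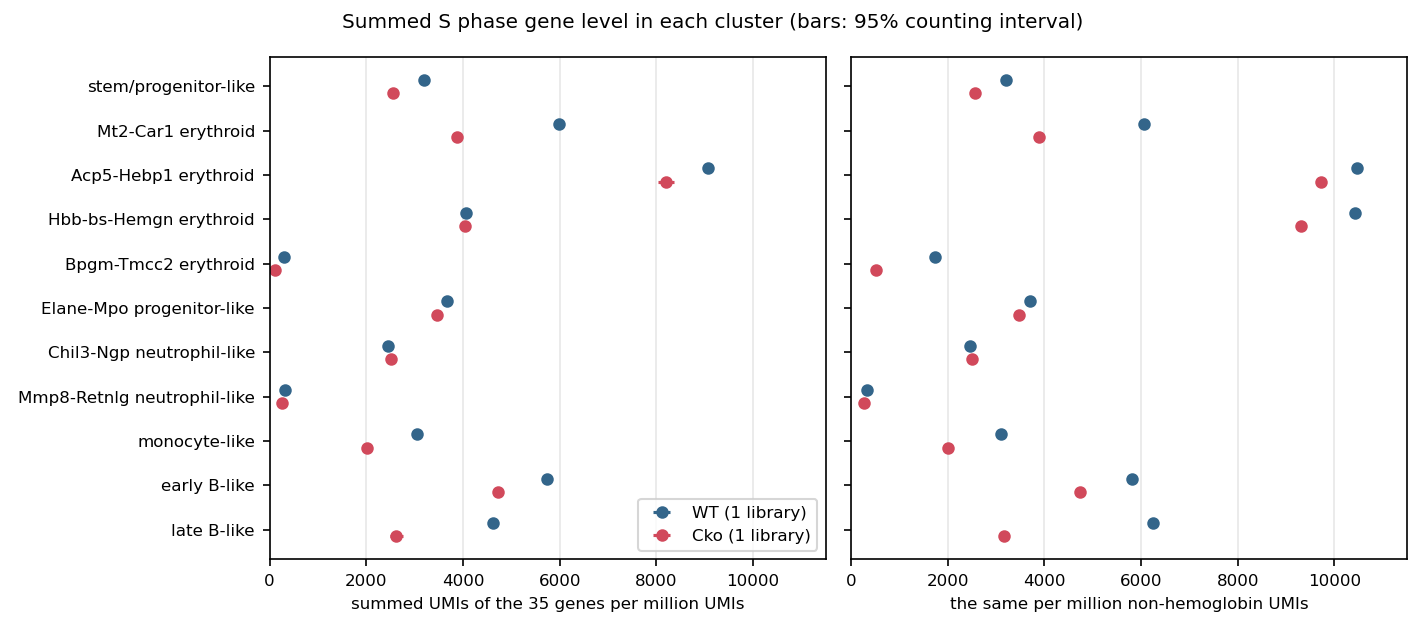
Summed UMIs of the 35 S phase genes in 11 clusters, per total UMIs (left, CPM) and per non-hemoglobin UMIs (right, CPM with hemoglobin left out), for the WT library (blue) and the Cko library (red). Bars on the left are 95% counting intervals, mostly smaller than the points. The Acp5-Hebp1 erythroid cluster is highest on the left at 9072 CPM in WT, and the Hbb-bs-Hemgn erythroid cluster moves up from 4058 to 10417 CPM in WT on the right.

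Single genes mostly followed the sum, with exceptions by role. Over the 11 clusters, 29 of the 35 genes had their highest WT level in the Acp5-Hebp1 erythroid cluster, and 28 did so in Cko. The exceptions in WT were Dut, which was highest in Mt2-Car1 erythroid cells (1031 CPM), Ung in stem and progenitor-like cells (54.9 CPM), and Gins2, Usp1, Uhrf1 and Hells in early B-like cells. In Cko the early B-like cells led for those 4 and for Ung and Pola1, and the stem and progenitor-like cells led for Rfc2, a subunit of the clamp loader (163 CPM).

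Hells, a chromatin remodeler that DNA methylation depends on, gave 171 CPM in WT and 132 CPM in Cko early B-like cells, against 77.2 and 71.8 CPM in the Acp5-Hebp1 erythroid cells. Uhrf1, which brings the maintenance methyltransferase to newly copied DNA, gave 166 and 141 CPM against 135 and 127 CPM. Dut, the enzyme that removes dUTP and so keeps uracil out of DNA, stood at 848 and 686 CPM in early B-like cells, and Gins2, a GINS subunit, at 119 and 101 CPM. Early B-like cells therefore held more Hells, Uhrf1, Dut and Gins2 in CPM than the Acp5-Hebp1 erythroid cells in WT, while their summed level was lower.

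The reverse held for Ccne1, the G1 to S cyclin E1, and for the loading factor Cdc6, whose levels were highest in erythroid cells and low in the other dividing clusters. Ccne1 reached 172 CPM in WT and 159 CPM in Cko in the Acp5-Hebp1 cluster, against 29.5 and 22.2 CPM in early B-like, 14.7 and 19.4 CPM in Elane-Mpo progenitor-like and 11.4 and 7.38 CPM in stem and progenitor-like cells. Cdc6 gave 113 and 86.8 CPM in the Acp5-Hebp1 cluster against 25.2 and 18.8 CPM in early B-like and 21.4 and 18.0 CPM in Elane-Mpo progenitor-like cells. The late B-like cluster of WT was an exception, with Ccne1 at 69.5 CPM and Cdc6 at 48.3 CPM. In this cluster 175 of 236 cells bore hemoglobin, and the other 61 cells, some of them called doublets, stood at 81.3 CPM for Ccne1 and 52.1 CPM for Cdc6. The late B-like cluster of Cko stood at 26.3 CPM for Ccne1 and 24.7 CPM for Cdc6.

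**Figure D2:**
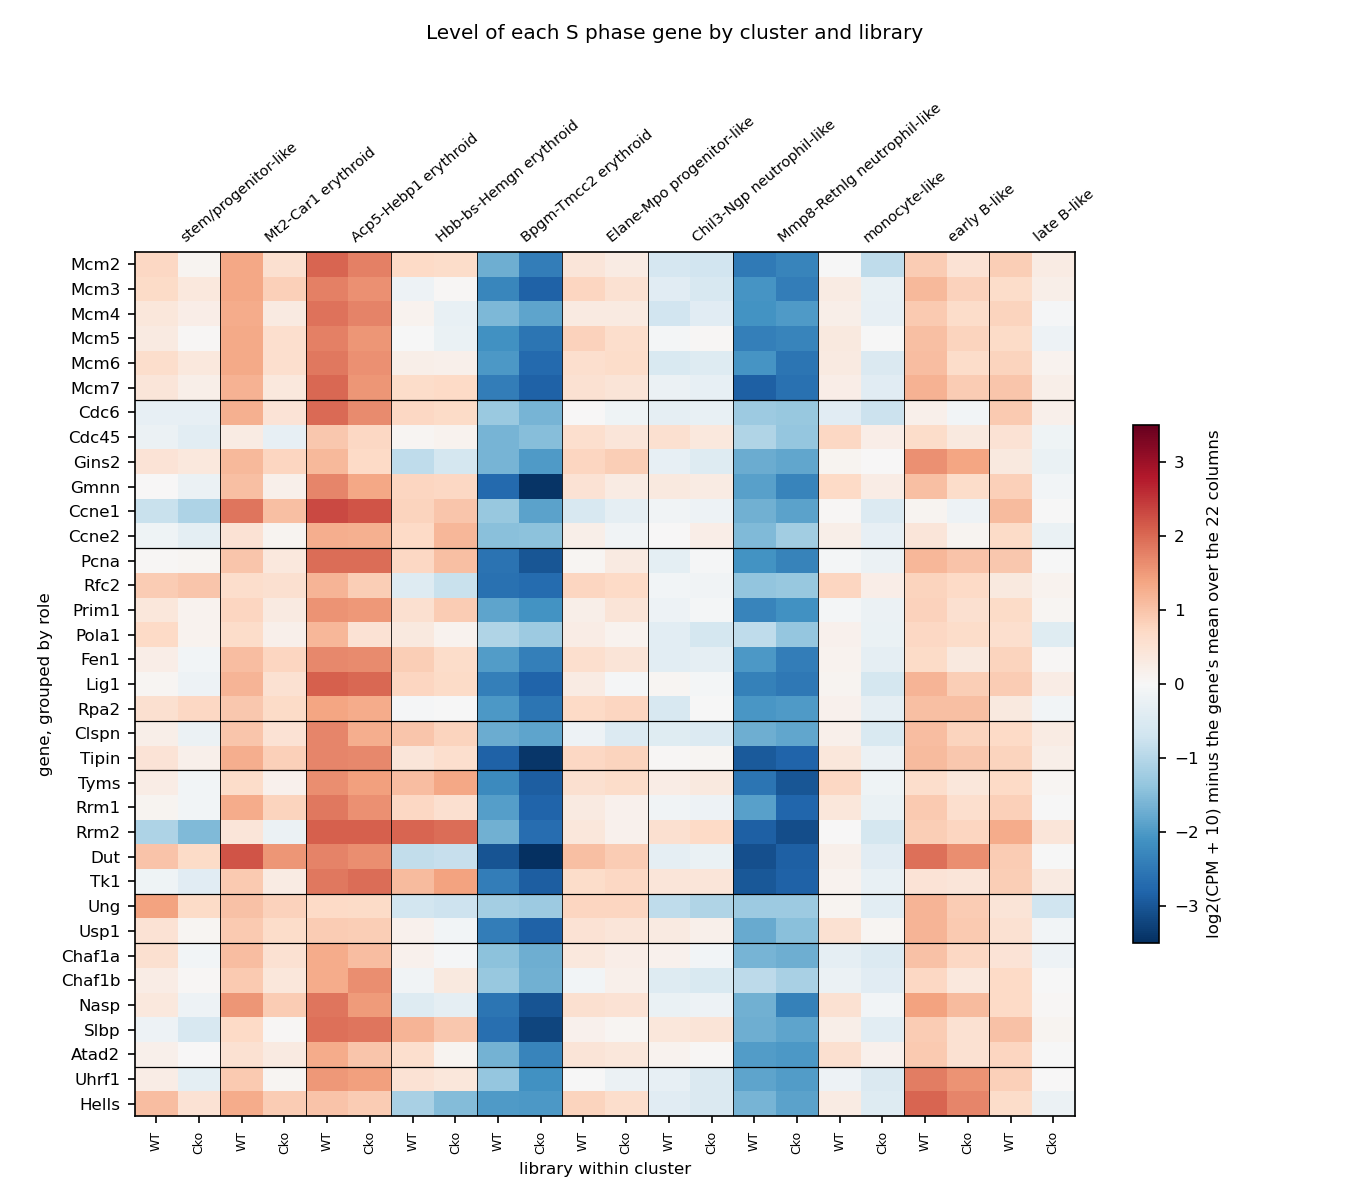
Level of each of the 35 genes (rows, grouped by role and divided by lines) in 11 clusters, WT and Cko side by side. Colour gives log2(CPM + 10) minus the gene's mean over the 22 columns, so red is above and blue below the gene's own mean. Nearly all rows are reddest in the Acp5-Hebp1 erythroid pair and bluest in the Bpgm-Tmcc2 and Mmp8-Retnlg pairs, while Hells, Uhrf1, Dut and Gins2 are also red in early B-like cells.

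By role, nucleotide supply (Dut, Rrm1, Rrm2, Tk1, Tyms) gave 2500 CPM in WT and 2379 CPM in Cko in the Acp5-Hebp1 cluster and 1614 and 1369 CPM in early B-like cells. The 6 MCM genes summed to 1597 and 1309 CPM in the Acp5-Hebp1 cluster, 1045 and 598 CPM in the Mt2-Car1 cluster, 880 and 687 CPM in early B-like and 621 and 570 CPM in Elane-Mpo progenitor-like cells. The MCM helicase is a ring of 1 copy of each subunit. The 7 genes of synthesis at the fork gave 1607 and 1507 CPM in the Acp5-Hebp1 cluster, of which Pcna made 434 and 435 CPM. The histone supply and chromatin assembly group gave 1444 and 1310 CPM there, of which Slbp, which binds the stem-loop of histone mRNA, made 848 and 810 CPM.

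Across the erythroid series the summed level did not decline steadily. With all UMIs as the denominator, the levels in WT ran 5987, 9072, 4058 and 291 CPM from the Mt2-Car1 to the Bpgm-Tmcc2 cluster, and in Cko 3868, 8196, 4037 and 105 CPM. Both libraries thus peaked in the second stage. Hemoglobin takes most UMIs of the later stages and so pushes down every other gene in CPM, and with hemoglobin UMIs left out of the total (non-hemoglobin CPM) the WT levels ran 6065, 10472, 10417 and 1734, and the Cko levels 3894, 9720, 9312 and 521. On this scale the Acp5-Hebp1 and Hbb-bs-Hemgn stages were nearly level, 1.01 times apart in WT and 1.04 times in Cko, and the Bpgm-Tmcc2 stage stood below the Hbb-bs-Hemgn stage by 6.01-fold in WT and by 17.9-fold in Cko.

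The Mt2-Car1 cluster stood 20.6-fold above the Bpgm-Tmcc2 cluster in WT (19.3 to 22) and 36.7-fold in Cko (30.7 to 44.3), or 3.5-fold and 7.47-fold on the non-hemoglobin scale. With cells of under 500 genes left out, 9366 of 9933 cells remained and were clustered anew. The log2 ratio of the first over the last of the new erythroid stages was 0.58 in WT and -0.05 in Cko. The new last stage was not matched to the Bpgm-Tmcc2 cluster, so another pair of stages may be compared than in the ratios above, 4.36 and 5.20 in log2. All 35 genes with at least 100 UMIs over both stages were more than 1.5-fold higher in the Mt2-Car1 cluster in WT, and 29 of 29 in Cko. Of all genes tested, 91.0% passed the same limit in WT and 86.9% in Cko, so the count says little about the group itself. The median log2 ratio was 4.46 for the group and 3.88 for all genes in WT, and 5.26 and 3.83 in Cko (4.98 for the group with counts under 3 set to 3). The smallest differences belonged to Rrm2 in both libraries (4.99-fold in WT and 7.85-fold in Cko), followed in WT by Uhrf1 (8.71-fold) and Atad2 (10.5-fold) and in Cko by Slbp (15.8-fold) and Fen1 (23.7-fold). The largest in WT were Hells (98.2-fold, resting on 3 UMIs in the last stage, log2 interval 5.07 to 8.90), Ung (59.8-fold, on 2 UMIs, 4.04 to 8.95) and Dut (59.0-fold, from 1031 to 17.5 CPM). In Cko, Ccne1 and Atad2 had no UMI in the last stage and were at least 25.2-fold and 19.8-fold higher in the first, taking 3 UMIs over the stage as the floor, and Mcm3 was at 127 against 0.878 CPM on 1 UMI, a log2 ratio of 7.17 (4.68 to 12.48).

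Sorting the erythroid-like cells by their own hemoglobin share gave the same shape in finer steps. In non-hemoglobin CPM, WT stood at 5491 in cells under 1% hemoglobin, at 8320 (1 to 5%), 9855 (5 to 10%) and 11057 (10 to 30%), at 13860 in cells of 30 to 60%, and at 6630 (60 to 80%) and 1512 (above 80%). Cko ran 3555, 7251, 8903, 10519, 11590, 2593 and 477. Both libraries were highest at 30 to 60% hemoglobin. The UMIs of the group per cell peaked earlier, at 123 per WT cell and 149 per Cko cell of 1 to 5% hemoglobin, while the median of non-hemoglobin UMIs per WT cell was 17763 under 1% and 3147 at 30 to 60%. The limits cut a continuous range: 448 WT and 81 Cko cells lay within 10% of the 60% limit, and 606 and 139 within 10% of the 80% limit.

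**Figure D3:**
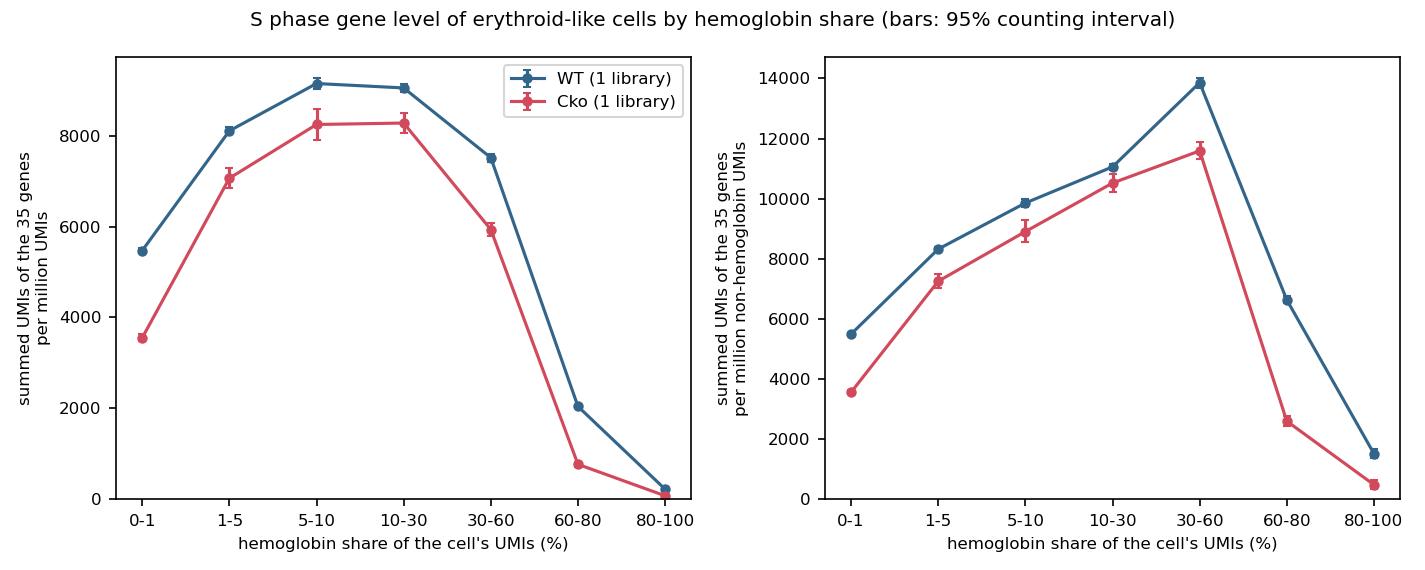
Summed level of the 35 genes in erythroid-like cells (vertical axis) against the hemoglobin share of the cell's UMIs (horizontal axis, 7 ranges), in CPM (left) and non-hemoglobin CPM (right). Points are 1 library each and bars are 95% counting intervals. The right-hand curves peak at 30 to 60% hemoglobin, at 13860 in WT and 11590 in Cko, and Cko lies below WT in every range.

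Genes of the group reached their erythroid peak at different points. Per non-hemoglobin UMI, 27 of the 35 genes in WT and 19 in Cko were highest at 30 to 60% hemoglobin, among them Rrm2, Slbp, Tyms, Tk1, Pcna, Gmnn, Lig1, Fen1, Mcm2 and Mcm7 in both. Earlier peaks in WT were those of Dut and Ung (1 to 5%), Gins2 and Hells (5 to 10%), and Mcm3, Mcm5, Chaf1b and Nasp (10 to 30%). Rrm2, the regulated subunit of ribonucleotide reductase, ran 187, 471, 694, 1060, 2048, 1585 and 253 over the 7 ranges in WT and 118, 526, 623, 1102, 1838, 573 and 58.1 in Cko. Slbp ran 301, 617, 832, 1104, 1751, 744 and 137 in WT and 201, 526, 669, 1158, 1260, 239 and 81.4 in Cko. Dut was highest at 1 to 5% in WT and at 5 to 10% in Cko, and lower at 30 to 60% than there. It ran 1042, 1043, 927, 759, 510, 125 and 122 in WT and 630, 896, 911, 717, 415, 20.9 and 58.1 in Cko. Rrm2 and Dut, both enzymes of nucleotide supply, thus peaked in different ranges.

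The neutrophil lineage was then set beside the erythroid one gene by gene, with the Chil3-Ngp cluster taken as the stage after the Elane-Mpo cluster, an order chosen after seeing the data and opposite to that of the fixed maturity measure. From the Elane-Mpo progenitor-like to the Chil3-Ngp neutrophil-like cluster the summed level went from 3675 to 2449 CPM in WT and from 3467 to 2505 CPM in Cko, and the median log2 ratio of the group was -0.51 and -0.64, against -0.77 and -0.74 for all genes tested. Per non-hemoglobin UMI the medians of the group were -0.49 and -0.63. Against the median of the group, 11 genes had higher ratios in both lineages and both libraries (Hbb-bs-Hemgn over Mt2-Car1 erythroid per non-hemoglobin UMI, Chil3-Ngp over Elane-Mpo): Cdc45, Gmnn, Ccne2, Pcna, Lig1, Clspn, Tyms, Rrm2, Tk1, Slbp and Uhrf1. A further 13 were below the median of the group in all 4: Mcm3, Mcm4, Mcm5, Mcm6, Gins2, Rfc2, Rpa2, Tipin, Dut, Ung, Chaf1b, Nasp and Hells. Over the 35 genes the log2 differences correlated at r = 0.94 between WT and Cko in the erythroid step, at 0.92 in the neutrophil step and at 0.68 to 0.73 between the lineages. These correlations are across genes, which are not independent, and are given as a description.

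Rrm2 differed by 3.01 (WT) and 3.40 (Cko) on the log2 scale in the erythroid step and by 0.16 and 0.57 in the neutrophil step, and Slbp by 1.83, 2.13, 0.25 and 0.39. At the other end, Ung, which cuts uracil out of DNA, differed by -1.40, -1.52, -2.93 and -3.55, Hells by -1.92, -2.45, -1.44 and -1.43, Dut by -1.81, -1.23, -1.43 and -1.17 and Gins2 by -1.28, -0.59, -1.26 and -1.62. Ung in particular left only 3.18 CPM in WT and 1.74 CPM in Cko in the Chil3-Ngp cells, from 30.8 and 30.9 CPM in the Elane-Mpo cells. The MCM genes behaved unevenly, since Mcm2 and Mcm7 were above 0 in the erythroid step of both libraries (0.63 and 1.27 for Mcm2, 0.73 and 1.54 for Mcm7) and below 0 in the neutrophil step, at -1.19 and -1.13 for Mcm2 and at -0.82 and -0.80 for Mcm7.

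All genes of the group with enough UMIs were lower in the mature neutrophil-like cells. By the fixed measure of maturity the Chil3-Ngp cluster stood before the Elane-Mpo cluster (log2 of late over early genes of -9.63 against -8.56 in WT), and Ngp, Camp and Ltf count as early genes in that measure, so the first over last ratio compares Chil3-Ngp with Mmp8-Retnlg cells. That ratio was 7.64 in WT (6.70 to 8.75) and 9.66 in Cko (8.94 to 10.4), and with the Elane-Mpo cluster as the first stage, a choice made after seeing the data, it was 11.5 and 13.4. All 25 genes with enough UMIs were more than 1.5-fold higher in the first stage in WT and 31 of 31 in Cko, beside 40.7% and 41.8% of all genes. The UMIs of both stages were counted together for this limit. In WT the genes reached it mainly through the first stage, as Slbp with 994 UMIs there and 42 in the last. The filter thus favors genes high in the first stage, for the group and for all genes alike, and the count does not cover the genes left out. The group's median log2 ratio was 2.91 in WT (2.78 with counts under 3 set to 3) and 3.46 in Cko, against 0.39 and 0.41 for all genes.

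The least different genes were Rfc2 (3.02-fold in WT and 2.86-fold in Cko), then Nasp (3.63-fold) and Mcm6 (4.52-fold) in WT and Usp1 (4.38-fold) and Slbp (5.70-fold) in Cko. Prim1 in WT and Ccne1 in Cko had no UMI in the last stage, which gives ratios of at least 8.19-fold and at least 19.7-fold and leaves their place in the order unknown. Among the genes with UMIs in both stages, the highest ratios in WT were those of Tk1 (43.9-fold on 2 UMIs, log2 interval 3.59 to 8.51) and Mcm2 (22.9-fold on 1 UMI, 2.01 to 9.83). In Cko they were those of Tyms (44.7-fold) and Chaf1a (30.4-fold on 2 UMIs, 3.05 to 7.99). Slbp was at 58.8 CPM in WT and 52.0 CPM in Cko in the Mmp8-Retnlg cells.

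In the B lineage the early and late stages could not be separated cleanly. The early B-like cluster, marked by Igll1 and Vpreb1 of the surrogate light chain, stood at 5740 CPM in WT and 4729 CPM in Cko, and the late B-like cluster at 4627 and 2618 CPM, ratios of 1.24 (1.21 to 1.27) and 1.81 (1.72 to 1.90). Without the cells of at least 5% hemoglobin, the late B-like level was 5791 CPM in the remaining 61 WT cells and 2800 CPM in the 47 Cko cells, and the ratios became 1.0 (0.97 to 1.04) and 1.69 (1.59 to 1.81). Of the 61 called doublets of the WT cluster, 41 were among the hemoglobin-bearing cells, so others remained after this step. The direction in WT was reversed with hemoglobin left out of the denominator (log2 ratio -0.10) and with finer clustering (-0.15). In place of 0.31 the WT log2 ratio was 0.76 with called doublets removed, 1.09 with at least 500 genes and 1.21 with cycle genes kept, each clustered anew. Of the 35 genes, 9 were more than 1.5-fold higher in the early cluster in WT and 24 in Cko, beside 54.1% and 45.7% of all genes. Without the hemoglobin-bearing cells, 3 of 35 were higher in the early cluster in WT (Hells, Clspn and Uhrf1) beside 23.5% of all genes, and 3 were lower (Ccne1, Cdc6 and Tk1). In Cko 20 of 34 were then higher beside 26.9%, and 1 was lower, Ccne1. The median log2 ratio of the group was -0.06 in WT and 0.65 in Cko without these cells, against 0.18 and 0.20 for all genes.

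The genes highest in the early over the late B-like cluster were Hells (2.90-fold in WT and 4.73-fold in Cko), Gins2 (2.70-fold and 3.86-fold), Dut in WT (2.10-fold) and Ung in Cko (7.04-fold, on 3 UMIs, log2 interval 1.24 to 5.11). The lowest were Ccne1 (0.424 in WT and 0.844 in Cko) and Cdc6 (0.522 and 0.761), with Rrm2 (0.727) in WT and Tk1 (1.09) in Cko. Without the hemoglobin-bearing cells, Hells was at 1.52-fold in WT and 3.25-fold in Cko, Gins2 at 1.48-fold and 2.35-fold, and Dut at 1.21-fold in WT. Ung was at 6.03-fold in Cko, on 2 UMIs (log2 interval 0.72 to 5.65). Ccne1 was then at 0.367 in WT and 0.642 in Cko, Cdc6 at 0.490 in WT, Rrm2 at 0.920 in WT and Tk1 at 1.35 in Cko, and Cdc6 had too few UMIs in Cko. Ccne1, Cdc6 and Rrm2 all had their highest level over the 11 clusters in erythroid cells. Finer clustering split the early B-like cells into a Dntt-bearing cluster, at 5446 CPM in WT and 4891 CPM in Cko, and a Myl4-Fcrla cluster, at 6031 and 4539 CPM.

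Cells of one cluster differed widely in these transcripts. Thinned to 3000 UMIs per cell, so that depth did not enter, 99.8% of Acp5-Hebp1 erythroid cells in WT and 100% in Cko held at least 5 UMIs of the group, with medians of 28 and 25 UMIs. In the Mt2-Car1 cluster these shares were 99.4% (98.6 to 99.8) in WT and 89.6% (82.5 to 94.5) in Cko, with medians of 18 and 10. The Elane-Mpo progenitor-like cells gave 92.8% and 87.0%, the early B-like cells 93.4% and 85.6%, the stem and progenitor-like cells 74.1% and 57.0%, the Hbb-bs-Hemgn erythroid cells 66.2% and 68.1%, and the Chil3-Ngp neutrophil-like cells 61.5% and 62.3%. At the bottom were the Mmp8-Retnlg cells, with 1.71% and 1.79%, which set the background for such a share, and the Bpgm-Tmcc2 cells, with 1.56% and 0.599%. Thinning used all UMIs, and hemoglobin takes most UMIs of the Bpgm-Tmcc2 and Hbb-bs-Hemgn cells. It lowers their shares, so the Bpgm-Tmcc2 share is not a background for clusters with little hemoglobin. Unthinned, the Acp5-Hebp1 share was 99.8% and 100%, the Chil3-Ngp share 85.3% and 86.7% and the Mmp8-Retnlg share 3.43% and 3.21%. Of the cells in these clusters none fell short of 3000 UMIs.

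Some clusters held cells with many and cells with few of these UMIs, and others were even. In the Acp5-Hebp1 cells of WT the top 25% of cells held 33.2% of the group's UMIs, and the variance over the mean of the thinned count was 1.88. In Hbb-bs-Hemgn cells these values were 57.6% and 10.1 in WT and 57.2% and 9.75 in Cko, with a 10th percentile of 1 UMI and a 90th of 29 and 28. Hemoglobin was part of the thinned UMIs, so a cell with more hemoglobin kept fewer other UMIs. The part of hemoglobin in the spread of these cells was not tested. In the monocyte-like cells of Cko the top 25% of cells held 72.9%, with a median of 2 UMIs and a 90th percentile of 14.8, against 57.3%, 6 and 19 in WT.

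**Figure D4:**
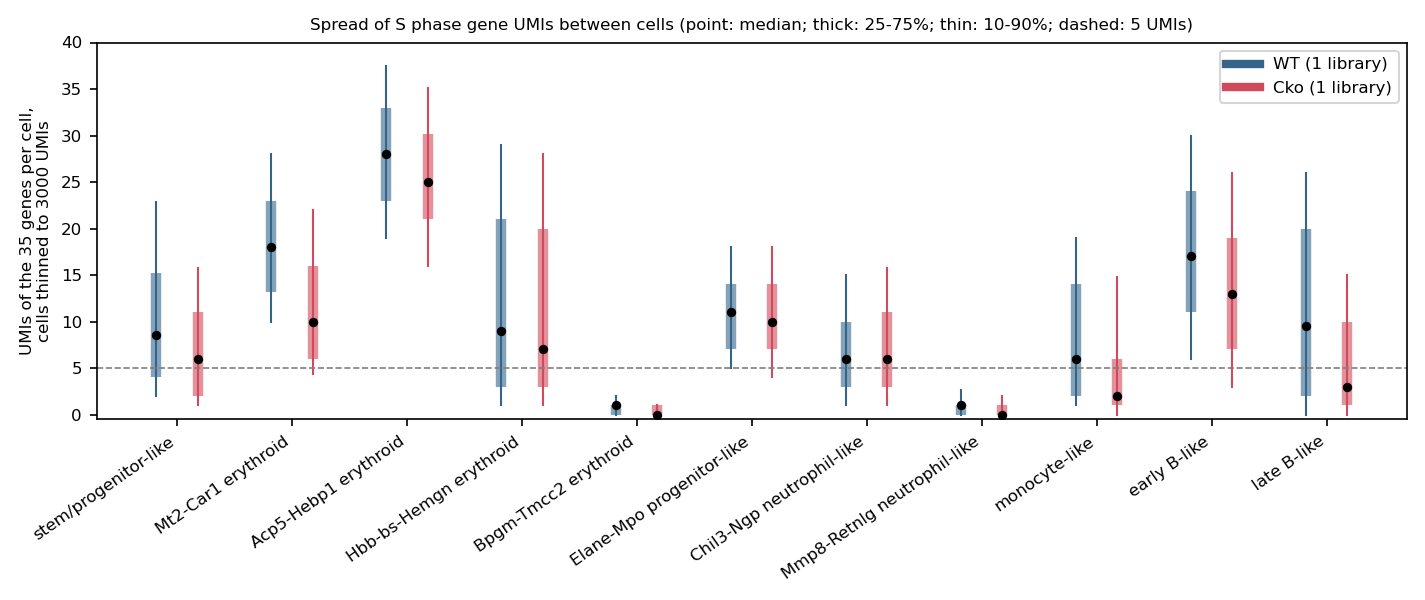
UMIs of the 35 genes per cell after thinning each cell to 3000 UMIs (hemoglobin included), in 11 clusters for WT (blue) and Cko (red). Points are medians over cells, thick lines the middle 25 to 75% and thin lines the 10 to 90% range, and the dashed line marks 5 UMIs. The Acp5-Hebp1 medians of 28 and 25 stand far above the Mmp8-Retnlg medians of 1 and 0, and the Hbb-bs-Hemgn cells span from 1 to 29 UMIs (10th to 90th percentile) in WT.

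Cko was then set against WT class by class. In the erythroid class the summed level was 5850 CPM in WT and 4085 CPM in Cko, a ratio of 0.698 (0.690 to 0.707). All 35 genes were lower in Cko, 14 of them by more than 1.5-fold and none higher by that much, beside 6.62% of all genes tested past the limit downward and 6.64% upward. The median log2 ratio was -0.53 for the group and -0.13 for all genes. Mcm4 (48.7 against 86.5 CPM), Pola1 (17.8 against 31.5 CPM) and Cdc6 (39.1 against 66.2 CPM) had the lowest ratios, and Tk1 (176 against 215 CPM), Chaf1b (37.0 against 43.7 CPM) and Ccne2 (32.5 against 38.0 CPM) the highest. The Cko class held more Bpgm-Tmcc2 cells (30.5% against 17.0%) and fewer Acp5-Hebp1 cells (18.2% against 25.2%). At the UMI mix of WT the ratio was 0.810, and at that of Cko 0.79. None of the 35 passed a limit of 2-fold.

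The ratio differed between the erythroid clusters. In the Mt2-Car1 cluster, Cko stood at 0.646 of WT (0.633 to 0.659), in the Acp5-Hebp1 cluster at 0.903 (0.885 to 0.922), in the Hbb-bs-Hemgn cluster at 0.995 (0.968 to 1.02) and in the Bpgm-Tmcc2 cluster at 0.363 (0.297 to 0.439). Per non-hemoglobin UMI these ratios were 0.642, 0.928, 0.894 and 0.301 in that order, so on this scale Cko was below WT in the Hbb-bs-Hemgn cluster as well. The Bpgm-Tmcc2 levels cannot be told apart from free RNA, so their ratio is not read as a difference in expression. In the Mt2-Car1 cluster all 35 genes were lower in Cko and 20 of them by more than 1.5-fold, beside 9.02% of all genes, with a median log2 ratio of -0.64 against -0.11. In the Acp5-Hebp1 cluster 1 of 35 was lower by that much, Pola1, beside 9.17%, and in the Hbb-bs-Hemgn cluster 0 of 33 beside 8.16%. Chaf1b was 1.55-fold higher in Cko in the Hbb-bs-Hemgn cells (30.2 against 19.5 CPM, on 45 and 148 UMIs). In Bpgm-Tmcc2 cells only Rrm2 reached 100 UMIs over both libraries, at 47.2 CPM in WT and 19.3 CPM in Cko.

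In the Mt2-Car1 cluster all 6 MCM genes were lower in Cko. Mcm4 stood at 93.5 CPM in WT and 42.5 CPM in Cko (log2 ratio -1.14, -1.42 to -0.87), Mcm7 at 229 and 122 CPM, Mcm2 at 150 and 83.1 CPM, Mcm6 at 210 and 123 CPM, Mcm5 at 174 and 101 CPM and Mcm3 at 189 and 127 CPM. Uhrf1 (86.2 and 43.5 CPM) and Cdc6 (63.9 and 33.2 CPM) followed Mcm4. Least different were Rfc2 (124 and 121 CPM), Atad2 (62.5 and 52.1 CPM) and Ung (39.5 and 32.8 CPM). Dut was at 1031 and 644 CPM.

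Marker genes of several lists differed alongside in these cells. In the Mt2-Car1 cluster, of 21 erythroid markers with enough UMIs, 11 were more than 1.5-fold lower in Cko (among them Alas2, Bpgm, Fam132a, Rhd, Slc4a1 and the hemoglobin genes) and 1 higher, Car1 (1787 against 1031 CPM), and their summed level was 20620 CPM in WT and 13591 CPM in Cko. Of 5 stem and progenitor markers, Gata2, Ifitm1 and Kit were higher by that much and none lower, with a sum of 106 CPM in WT and 158 CPM in Cko. Of 8 granulocyte-monocyte progenitor markers 6 were lower (Elane stood at 143 CPM in WT and 20.3 CPM in Cko) and 2 higher, with a sum of 364 and 122 CPM, and of 5 early B markers 4 were lower, with a sum of 94.8 and 36.4 CPM. Of the neutrophil markers 1 of 11 was higher, with sums of 4135 and 4164 CPM, and of the monocyte markers 1 of 2, with sums of 74.8 and 84.9 CPM. The part of these genes in the result was not tested. Among cells of matched hemoglobin share the ratio of Cko to WT was 0.649 (0.634 to 0.664) under 1%, 0.871 (0.842 to 0.901) at 1 to 5%, 0.901 (0.863 to 0.941) at 5 to 10%, 0.915 (0.888 to 0.941) at 10 to 30%, 0.79 (0.768 to 0.812) at 30 to 60%, 0.375 (0.35 to 0.402) at 60 to 80% and 0.333 (0.236 to 0.459) above 80%. Cko was thus lower in all 7 ranges, least so between 1 and 30%, where the ranges held 25, 17 and 51 Cko cells. Above 80% the levels were 218 CPM in WT and 72.7 CPM in Cko, on 41 Cko UMIs. They cannot be told from free RNA, so that ratio is not read as a difference in expression. Cells at 60 to 80% were not split by cluster, and Bpgm-Tmcc2 cells made up 30.5% of the Cko class against 17.0% in WT.

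**Figure D5:**
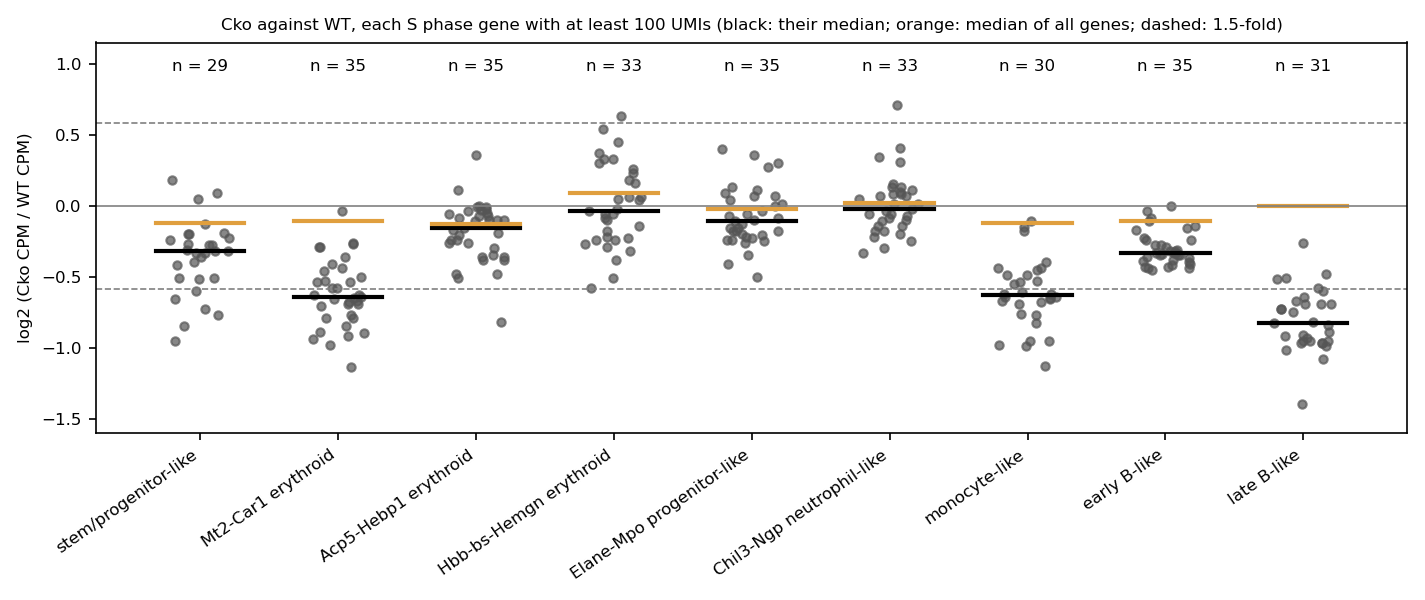
Ratio of the Cko to the WT level (log2, vertical axis) of each S phase gene with at least 100 UMIs over both libraries, in 9 clusters. Each grey point is 1 gene, the black line their median, the orange line the median of all genes tested and the dashed lines 1.5-fold. In the Mt2-Car1 erythroid cluster all 35 points lie below 0 with a median of -0.64, and in the Chil3-Ngp cluster they spread around 0 with a median of -0.02.

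In the neutrophil class the summed level was 3077 CPM in WT and 2574 CPM in Cko, a ratio of 0.837 (0.825 to 0.849), and 0 of 35 genes passed 1.5-fold in either direction, beside 5.45% of all genes downward and 3.31% upward. Pola1 (11.5 CPM in Cko against 16.9 CPM in WT), Mcm3 (63.9 against 91.5 CPM) and Hells (34.5 against 48.0 CPM) had the lowest ratios, and Pcna (101 against 94.8 CPM), Ccne1 (17.2 against 16.6 CPM) and Prim1 (41.2 against 40.5 CPM) the highest. Mmp8-Retnlg cells made up 34.4% of the class in Cko and 14.7% in WT, and at the WT mix the ratio was 0.962. The Elane-Mpo cells stood at 0.943 of WT (0.927 to 0.960) and the Chil3-Ngp cells at 1.02 (0.996 to 1.05), with 0 of 35 and 0 of 33 genes lower by 1.5-fold, beside 2.98% and 2.13% of all genes. In the Chil3-Ngp cells Rpa2, a subunit of the single-strand binding protein, was at 53.7 CPM in Cko and 33.0 CPM in WT (log2 ratio 0.71, 0.39 to 1.03), the only gene of the group past 1.5-fold there.

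In the B class the level was 5420 CPM in WT and 4498 CPM in Cko, a ratio of 0.830 (0.817 to 0.843). Ccne1 (22.6 CPM in Cko against 41.0 CPM in WT), Cdc6 (19.4 against 31.8 CPM) and Ccne2 (20.7 against 31.3 CPM) were lower by more than 1.5-fold, 3 of 35 beside 7.03% of all genes, and 0 were higher beside 2.99%. The highest ratios were those of Rpa2 (115 against 108 CPM), Rfc2 (127 against 129 CPM) and Gins2 (93.3 against 97.6 CPM). Within the early B-like cluster, where 18 WT cells and 1 Cko cell held 5% hemoglobin or more, all 35 genes were lower in Cko by a small amount. The ratio of the sums was 0.824 (0.810 to 0.838), the log2 ratios ran from -0.45 for Ccne2 to -0.00 for Rpa2 with a median of -0.33 against -0.11 for all genes, and 0 of 35 passed 1.5-fold beside 2.96% of all genes. In the finer clusters the ratio was 0.898 for the Dntt-bearing cells, with 1 of 35 genes past the limit beside 4.54%, and 0.753 for the Myl4-Fcrla cells, with 6 of 35 beside 5.21%.

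In the monocyte class the level was 3054 CPM in WT and 2009 CPM in Cko, a ratio of 0.658 (0.636 to 0.680). Of 30 genes with enough UMIs all were lower in Cko, 18 by more than 1.5-fold beside 9.45% of all genes, and 0 were higher beside 5.68%. Mcm2 (24.0 CPM in Cko against 52.5 CPM in WT), Hells (21.9 against 43.3 CPM) and Clspn (19.0 against 37.5 CPM) had the lowest ratios, and Gins2 (33.5 against 36.1 CPM), Prim1 (33.7 against 37.5 CPM) and Pcna (88.6 against 100 CPM) the highest. Finer clustering separated the monocyte-like cells further. A Fn1-F13a1 cluster stood at 3271 CPM in WT and 2832 CPM in Cko, and a Sirpb1c-Apoe cluster at 543 and 426 CPM, near the level of the mature neutrophil-like cells. The latter made up 10.1% of the WT class (31 cells) and 47.4% of the Cko class (250 cells). Within the Fn1-F13a1 cells the ratio was 0.866 (0.836 to 0.896), and 2 of 30 genes were lower by 1.5-fold beside 4.96% of all genes. With called doublets removed and the cells clustered anew, the log2 ratio of the monocyte class was -0.08 in place of -0.60 and 0 genes passed the limit. That run used resolution 0.4 and gave 17 clusters, against 0.3 and 15, so the class may hold other cells. With doublets kept and at least 500 genes per cell, also at resolution 0.4, the log2 ratio was -0.09. The part of the doublets in this change was not tested.

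In the stem and progenitor-like cells the level was 3185 CPM in WT and 2552 CPM in Cko, a ratio of 0.801 (0.771 to 0.833). Of 29 genes with enough UMIs, 6 were lower by more than 1.5-fold beside 11.1% of all genes, among them Ung (28.5 CPM in Cko against 54.9 CPM in WT), Chaf1a (23.2 against 41.9 CPM) and Uhrf1 (30.1 against 51.1 CPM). Rpa2 (94.9 against 83.8 CPM), Rfc2 (163 against 154 CPM) and Pcna (111 against 107 CPM) had the highest ratios.

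Other genes of replication and its control, 83 of them on a fixed list and 64 measured in both libraries, mostly went the same way in the Mt2-Car1 cluster, where 25 of 62 with enough UMIs were lower in Cko by 1.5-fold and 4 higher, beside 9.02% and 6.78% of all genes, with a median log2 ratio of -0.40. The 4 higher ones were all regulators. Cdkn1a, which encodes the cyclin-dependent kinase inhibitor p21, stood at 1.37 CPM in WT (0.811 to 2.16, 18 UMIs) and 102 CPM in Cko (90.9 to 115, 287 UMIs). The D cyclins Ccnd1 (5.40 and 23.9 CPM) and Ccnd2 (34.7 and 79.9 CPM) and the transcription factor Myc (63.5 and 126 CPM) were the others. Dck, deoxycytidine kinase, had the lowest ratio (64.9 and 28.9 CPM). In the erythroid class as a whole 19 of 62 were lower and 4 higher, beside 6.62% and 6.64% of all genes. In the monocyte class 12 of 41 were lower and 1 higher, beside 9.45% and 5.68%. In the neutrophil class 4 of 62 were lower and 1 higher, beside 5.45% and 3.31%, and in the B class 2 of 61 and 1, beside 7.03% and 2.99%, so these shares lie near or below the background. The mitosis genes, 70 of which were tested in the erythroid class, gave 12 lower and 1 higher there. In the Mt2-Car1 cluster 9 of 70 were lower and 1 higher, beside 9.02% and 6.78% of all genes, with a median log2 ratio of -0.30. In the monocyte class 21 of 67 were lower and 0 higher, beside 9.45% and 5.68%. In the neutrophil class 1 of 70 was lower and 0 higher, beside 5.45% and 3.31%, and in the B class 1 of 70 and 0, beside 7.03% and 2.99%.

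Cdkn1a was followed further because it was the gene of that list with the largest ratio, so it was chosen after its values were seen. In WT it was rare in every erythroid cluster, at 1.37, 3.48, 3.55 and 0 CPM from the Mt2-Car1 to the Bpgm-Tmcc2 cluster, while in Cko it stood at 102, 135, 124 and 29.0 CPM. A Cdkn1a UMI was found in 47.0% of Cko cells of the Mt2-Car1 cluster (37.6 to 56.5) and 1.24% of WT cells (0.568 to 2.34), at median depths of 23754 and 17950 UMIs. In other clusters it stood at 14.8 CPM in Cko and 13.1 CPM in WT in stem and progenitor-like cells, 12.7 and 19.8 CPM in early B-like cells, 16.0 and 5.20 CPM in Elane-Mpo cells, 55.6 and 24.5 CPM in monocyte-like cells and 44.4 and 6.90 CPM in late B-like cells. Stromal-like cells were at 143 CPM in Cko and 205 CPM in WT, on 18 and 30 cells.

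The S phase genes did not differ between Cko erythroid cells with and without a Cdkn1a UMI in the Mt2-Car1 cluster beyond counting error, at 3843 CPM in 54 cells (3741 to 3947) and 3893 CPM in 61 cells (3791 to 3998). In the Acp5-Hebp1 cluster the values were 8148 and 8246 CPM, and in the Hbb-bs-Hemgn cluster 4207 CPM (4056 to 4362) with and 3888 CPM (3752 to 4028) without, so there the cells with a Cdkn1a UMI were slightly higher. Cells of 1 mouse are not replicates, and a cell without a Cdkn1a UMI may still hold the transcript.

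Outside the list, the 10 genes whose log2(CPM + 10) followed the sum of the 35 most closely over the 30 points made by 15 clusters in both libraries were Smarca5, Dnajc9, Cmc2, Ccdc34, Anp32b, Ncaph2, Anapc5, Ran, Rfc4 and Dek, with r from 0.96 to 0.97, out of 5097 genes with at least 1000 UMIs. Rfc4 and Dek are on the fixed replication list and Ran on the mitosis list. Dnajc9, a histone chaperone, ran from 276 CPM in WT Acp5-Hebp1 cells and 324 CPM in early B-like cells to 19.6 CPM in Mmp8-Retnlg cells. Within the group, the correlation of a gene with the sum of the other 34 ran from 0.65 for Ung to 0.97, with a median of 0.91. The points share libraries and depths, and the correlations are a description.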

How the data were processed

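Each deposited table held the UMI counts per gene and cell barcode that the authors made with Cell Ranger (version not given in the sources used here) on GRCm38, as the submitters' processing notes name them. Their row and column of sums were left out. Every listed gene reached 4 UMIs in some barcode, so rare genes are not analysed here. Barcodes with at least 200 genes were kept. WT summed to 56318434 UMIs and Cko to 34410445. Scrublet, as run by scanpy 1.11.5, marked 122 WT and 38 Cko cells as doublets, which were kept. Both libraries were clustered together in Seurat 5.3.0 (2000 variable genes, 20 components, resolution 0.3), without S phase, mitosis and histone genes. Clusters were named when at least 3 fixed markers were present in 25% of their cells at 1.5-fold over the rest. Counts were summed per cluster or class and library. Ratios carry exact conditional 95% intervals and levels exact Poisson intervals, which cover counting error only. Genes with at least 100 UMIs were compared and 1.5-fold was the limit. With 1 library per genotype no test was made. Stages need 50 cells in each library. Code was checked on simulated counts. Named genes were the 10 with most UMIs, the 3 highest and 3 lowest ratios of each comparison and the 10 genes most like the sum. The genes and lists were chosen with earlier results of these data known.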

Additional observations from a re-analysis of the deposited data

How the results depend on the processing

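No paired analysis was possible because each genotype is 1 library and no test was made. Over 26 results and 149 alternatives, 78 values stayed within counting error or their side of the limit, 58 moved, 7 counts were lower, 3 higher and 3 directions turned. The ratios below are log2 values of the summed group, and the cause of each move was not tested except where hemoglobin was left out by construction. With hemoglobin left out of the denominator, Cko over WT was -0.45 (erythroid) and -0.37 (B), and first over last stage was 1.81 (erythroid WT), 2.90 (erythroid Cko), -0.10 (B WT, turned) and 0.58 (B Cko). Finer clustering gave 4.21 (erythroid WT), 3.45 and 3.72 (neutrophil WT and Cko), -0.15 (B WT, turned) and 0.11 (B Cko) for first over last, and 1 gene lower in Cko in each of the neutrophil and B classes. Keeping cycle genes in the clustering gave -0.55 (erythroid, Cko over WT), then 4.58 (erythroid WT), 3.56 (neutrophil Cko), 1.21 and 1.40 (B WT and Cko), with 1 gene lower in neutrophils and 0 in B cells. Removing called doublets gave Cko over WT of -0.30 (neutrophil) and -0.08 (monocyte), first over last of 3.42 (neutrophil Cko), 0.76 and 1.5 (B WT and Cko), and 2, 1 and 0 genes lower in neutrophil, B and monocyte classes. A minimum of 500 genes gave -0.30 (neutrophil) and -0.09 (monocyte), then 0.58 and -0.05 (erythroid WT and Cko, the latter turned) and 1.09 and 1.47 (B WT and Cko). The runs without doublets and with 500 genes were clustered at resolution 0.4 in place of 0.3. Their classes and their first and last stages need not hold the same cells as in the main run. The mean of the cells' own shares gave -0.54 (erythroid), -0.45 (neutrophil), -0.32 (B) and -0.81 (monocyte), then 3.39 (neutrophil Cko), 0.58 and 1.16 (B WT and Cko). Without Dut, first over last was 4.18 (erythroid WT), 0.21 and 0.75 (B WT and Cko). Under a limit of 2-fold, 0, 0 and 1 genes were lower in erythroid, B and monocyte classes. The remaining alternatives were chosen after seeing the data: without cells of at least 5% hemoglobin UMIs the B class gave -0.33, and its first over last ratio 0.00 (WT) and 0.76 (Cko), and with the progenitor-like cluster first the neutrophil ratio was 3.52 (WT) and 3.74 (Cko).

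The share of cells with at least 5 UMIs of the group at 3000 UMIs was 70.8% and 57.8% (WT and Cko erythroid), 67.1% and 48.3% (neutrophil), 86.6% and 80.6% (B) and 59.1% and 31.1% (monocyte). With at least 3 UMIs it was 76.2% and 62.6%, 78.3% and 57.5%, 91.5% and 87.9%, and 73.5% and 43.9%. With at least 8 it was 65.3% and 47.4%, 50% and 34.9%, 79.3% and 70.1%, and 44.3% and 21.7%. Removing hemoglobin before thinning gave 99.5% and 94.0% (erythroid) and 91.8% (B WT), with 1601 WT and 217 Cko erythroid cells left out as too shallow. Rare genes of the last erythroid and neutrophil stages rest on a few UMIs, and the intervals say nothing of the spread between mice.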

Other observations

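The smaller clusters, each with under 50 cells in at least 1 library, also differed in the 35 genes. T or NK-like cells stood at 4015 CPM in WT (3669 to 4384, 19 cells) and 1783 CPM in Cko (1642 to 1933, 64 cells), and after thinning to 3000 UMIs 94.7% and 26.6% of them held at least 5 UMIs of the group. Macrophage-like cells stood at 3815 CPM in WT (50 cells) and 2844 CPM in Cko (9 cells), but 27 of the WT cells held at least 5% hemoglobin UMIs, and the other 23 stood at 4310 CPM. Stromal-like cells were low, at 1412 CPM in WT (30 cells) and 853 CPM in Cko (18 cells), and without 1 hemoglobin-bearing cell in each library they stood at 702 and 860 CPM, so the order of the libraries rested on single cells. An unnamed cluster that carried both Retnlg and Mmp8 of neutrophils and Ms4a1 and Cd79b of B cells stood at 2449 CPM in WT (48 cells) and 1512 CPM in Cko (35 cells). No explanation of these differences was tested.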
